A study of Ambystoma mexicanum with 20 samples.

Results

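Solute carriers were examined as 83 transcripts of 64 gene symbols, out of 180605 transcripts in the expression table of the regenerating axolotl limb. A transcript was taken as a solute carrier where the study's own lists of transcripts changed in control limbs, available here in shortened form, paired it with a symbol beginning with SLC and a digit. Those lists held 6830 transcripts, of which 4778 carried a symbol. Of the 83 transcripts, 42 came from ST lists only, 31 from epidermis lists only and 10 from both, so the members are carriers that the study had called changed with time in DMSO limbs. Of the 64 symbols, 51 had 1 transcript, and SLC25A4 with 5 and SLC25A11, SLC25A12 and SLC35F6 with 3 each had the most. Transcripts that share a symbol are numbered here by falling mean level over the 20 samples. Their sequences overlap to an unknown degree, so the split of reads among them, and between the close relatives SLC25A4 and SLC25A6, is uncertain.

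Solute carriers are membrane proteins that move sugars, amino acids, ions, metals, nucleosides and metabolites across the plasma membrane or across the membranes of mitochondria, lysosomes and the Golgi, either along a gradient or by exchange or co-transport with an ion. The SLC25 family sits in the inner mitochondrial membrane. Several members mark a tissue, as SLC25A4, the muscle form of the ADP/ATP exchanger, and SLC4A1, the chloride/bicarbonate exchanger of the red blood cell, do in mammals. SLC9A3R1 bears the family prefix in its older name, but is a scaffold protein that binds transporters and not a carrier.

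RNA was sequenced from 20 samples of Ambystoma mexicanum, 10 of the epidermis (labelled wound epidermis) and 10 of the underlying ST (soft tissue), from the last millimetres of amputated forelimbs of juvenile animals. In each tissue the 5 groups of 2 samples were 0 dpa (days post-amputation), labelled DMSO and collected at once after amputation, and MS-275 and DMSO at 3 dpa (wound healing) and at 8 dpa (blastema formation). MS-275, an inhibitor of class I histone deacetylases, was injected at 25 mM under the wound epidermis every other day, and DMSO was the vehicle. A sample pooled the limbs of 2 animals. By the study's count of animals epidermis and ST came from the same animals, though the labels do not say which epidermis sample shares animals with which ST sample. No strain or allele was stated, and the injection was not aimed at 1 cell type.

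Values are TPM (a transcript's share of the RNA, corrected for its length), and changes are log2 fold changes of TPM + 0.1 with their standard error (SE) from limma, with n = 2 per group throughout. A change was called at a Benjamini-Hochberg adjusted p under 0.05 over all transcripts tested. The number of reads per sample is unknown. Each sample had 72566 to 92979 transcripts above 0 TPM. The labels fitted the markers in part. Keratin and other epidermal markers (7 symbols) summed to 1409 to 5611 TPM in epidermis and 54.7 to 1020 TPM in ST, and muscle markers (10 symbols) to 1.11 to 202 TPM in epidermis and 2411 to 36940 TPM in ST, while red blood cell markers (5 symbols) were at 7151 TPM or more in all samples. In ST at 0 dpa the 2 replicates stood apart, with 184805 and 11407 TPM of red blood cell markers. TPM are shares of each sample, and over all transcripts the log2 fold change, MS-275 over DMSO, had a median of 0.17 and -0.48 in epidermis and 0.09 and -0.33 in ST, at 3 and 8 dpa. In bulk samples such as these, fewer cells of a type and less RNA per cell cannot be told apart.

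Summed over all 83 transcripts, solute carriers took 0.0292% to 0.0488% of the TPM in epidermis samples and 0.0712% to 0.304% in ST samples. The highest share was in ST at 0 dpa, where the 17 mitochondrial carrier transcripts alone summed to 2491 and 2932 TPM. The most abundant member of each role, by mean TPM over the 20 samples, was SLC25A4 transcript 1 for the mitochondrial carriers (113 TPM), SLC39A7, a zinc carrier of the secretory pathway, for metals (34.5 TPM), SLC7A8 transcript 1, an exchanger of large neutral amino acids, for amino acids (29.4 TPM), SLC35B1, an ATP/ADP exchanger of the endoplasmic reticulum, for the nucleotide sugar family (21.1 TPM) and SLC4A1 for inorganic ions (20.5 TPM). The others were SLC37A2, a sugar phosphate carrier, with 16.5 TPM, SLC43A3, a purine base carrier, with 6.78 TPM, and SLC16A6 transcript 1, a monocarboxylate carrier, with 6.70 TPM. The median member averaged 3.54 TPM.

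The main question of the design is what MS-275 changed. In epidermis at 8 dpa 32 of 82 members tested were called with MS-275, 13 higher and 19 lower, where 12.2% of all transcripts were called, 2% higher and 10.2% lower. In ST at 3 dpa 8 of 82 were called, 3 higher and 5 lower, beside 3.48% of all transcripts, 2.86% higher and 0.616% lower. The other comparisons gave 2 calls each, SLC25A6 and SLC16A3 higher in epidermis at 3 dpa, where 0.418% of all transcripts were called (0.348% higher, 0.0692% lower), and SLC25A6 higher and SLC26A11 lower in ST at 8 dpa, where 1.26% were called (0.434% higher, 0.826% lower). Transcripts with a symbol in the same lists, which are more abundant and were picked with the same DMSO samples as the members, were called more often than transcripts at large, at 31.1% in epidermis at 8 dpa, 2.13% in epidermis at 3 dpa, 11.2% in ST at 3 dpa and 7.62% in ST at 8 dpa, beside 39%, 2.4%, 9.8% and 2.4% of the members. Where a list that gave a member used the DMSO samples of a comparison, the p-value there is not independent of the choice of members. Of the 83 members 1 was called in all 4 comparisons, 1 in 3, 6 in 2, 25 in 1 and 50 in none.

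These counts rest on 2 samples per group. In ST at 3 dpa leaving out DMSO replicate 2 gave 11 calls, and leaving out DMSO replicate 1 or either MS-275 replicate gave 0. In ST at 8 dpa leaving out any replicate gave 0 calls. In epidermis at 3 dpa it gave 0 calls without either MS-275 replicate, 1 without DMSO replicate 1 and 5 without DMSO replicate 2. In epidermis at 8 dpa it gave 14 and 6 calls without MS-275 replicates 1 and 2, and 4 and 9 calls without DMSO replicates 1 and 2. Rescaling each sample so that the median transcript kept its level left 18 members called in epidermis at 8 dpa, 13 higher and 5 lower, against 13 and 19 before; the 5 were SLC1A3, SLC7A2, SLC16A7, SLC43A3 and SLC44A1. In ST at 8 dpa rescaling left SLC25A6 alone called. The members' median log2 fold change in epidermis at 8 dpa was -0.53 beside -0.48 over all transcripts, and 0.12 beside 0.03 after rescaling.

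**Figure D1:**
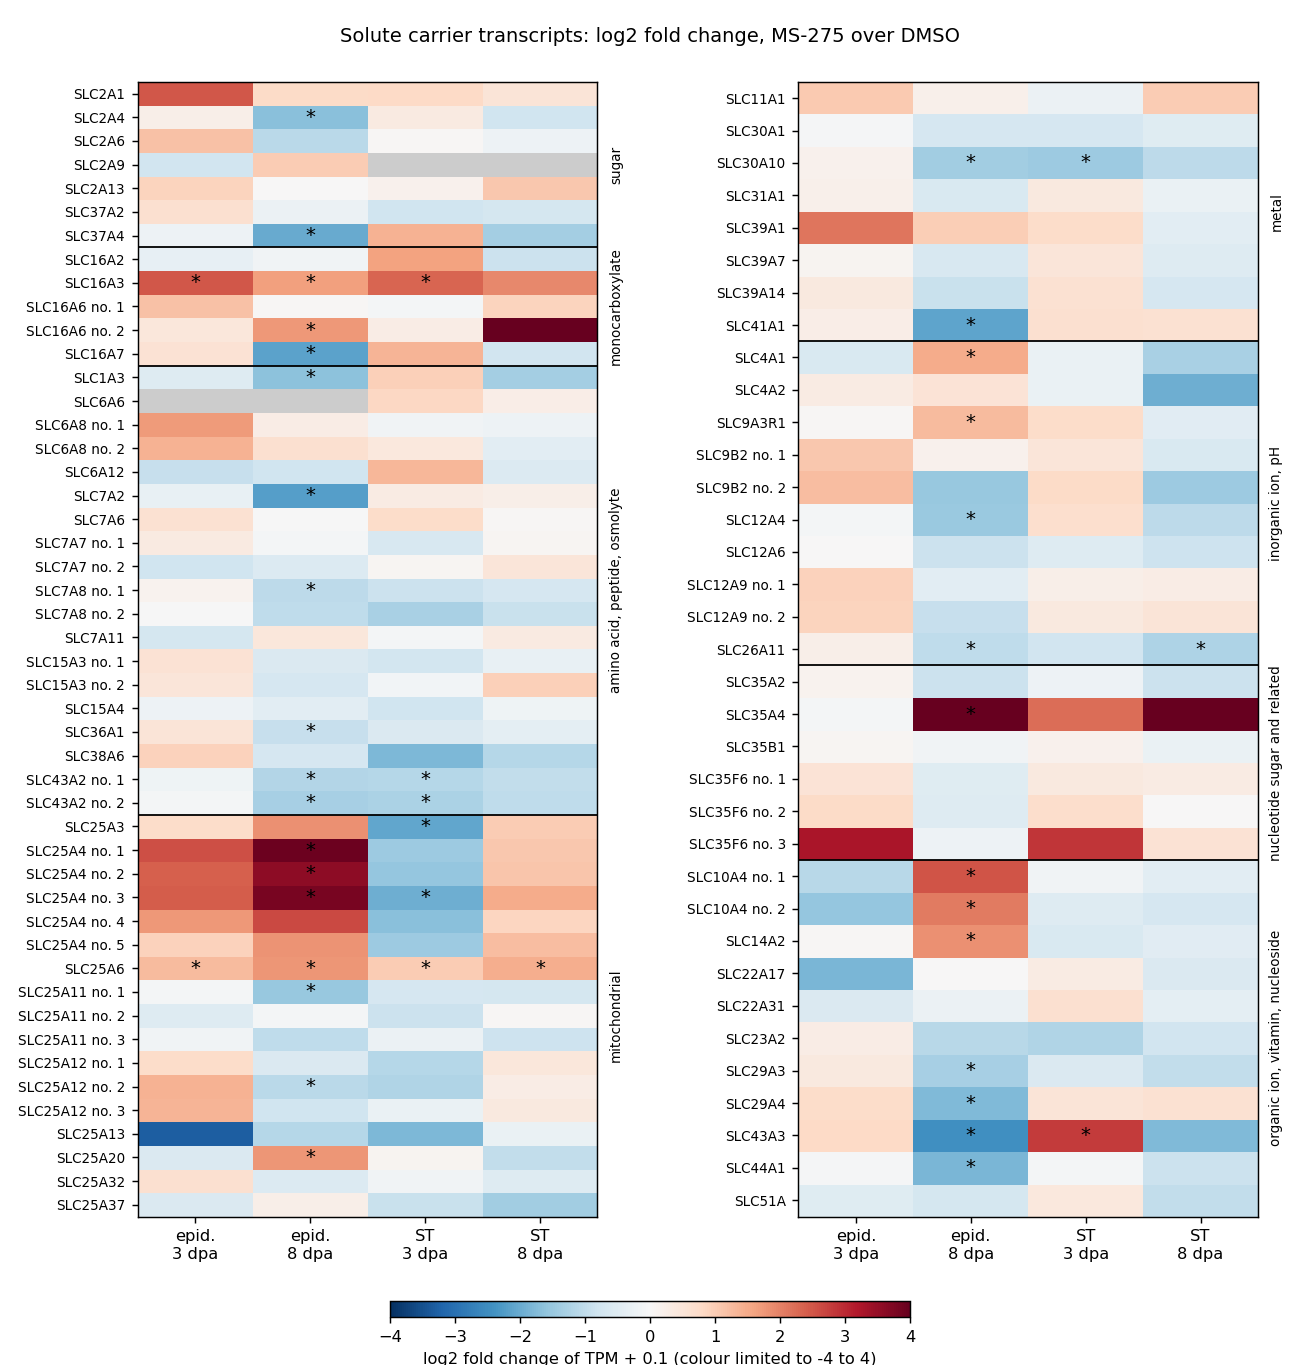
Log2 fold change of TPM + 0.1, MS-275 over DMSO, of each solute carrier transcript (rows, grouped by role, with the transcript number after "no.") in 4 comparisons (columns: epidermis and ST at 3 and 8 dpa, n = 2 per group). Stars mark an adjusted p under 0.05 and grey a transcript not tested in that tissue; SLC25A6 has a star in all 4 columns, and epidermis at 8 dpa holds 32 stars.

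SLC25A6, an exchanger of ADP and ATP across the inner mitochondrial membrane, rose with MS-275 in both tissues and at both times. In epidermis it had 86.1 and 79.1 TPM with MS-275 at 3 dpa, against 31.9 and 37.6 TPM with DMSO. At 8 dpa it had 105 and 96.8 TPM with MS-275, against 30.2 and 28.6 TPM with DMSO. In ST it had 126 and 109.7 TPM with MS-275 at 3 dpa, against 65.2 and 52.5 TPM with DMSO, and 118 and 121 TPM with MS-275 at 8 dpa, against 46.4 and 41.2 TPM with DMSO. No MS-275 sample overlapped a DMSO sample. The log2 fold change was 1.25 (SE 0.16, adjusted p = 0.0298) and 1.78 (SE 0.16, adjusted p = 0.00223) in epidermis at 3 and 8 dpa, and 1.0 (SE 0.19, adjusted p = 0.0331) and 1.45 (SE 0.19, adjusted p = 0.0245) in ST. Of 79058 transcripts tested in both tissues 14, or 0.0177%, were called higher in all 4 comparisons, SLC25A6 among them. At 0 dpa SLC25A6 stood at 30.1 and 32.7 TPM in epidermis and at 14.7 and 12.03 TPM in ST. The call in epidermis at 8 dpa was kept under all 11 other settings. In the other comparisons it was lost in 5 or 6 of 11 settings, and of the 4 that leave out a replicate 1 kept it in epidermis at 3 dpa and 0 in ST. SLC25A6 is a member through lists of both tissues. Where such a list used DMSO samples of these comparisons, the p-value is not independent of the choice of members.

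SLC16A3, the lactate exporter of glycolytic cells, also rose, at low levels. In epidermis it had 1.58 and 1.40 TPM with MS-275 at 3 dpa, against 0.18 and 0.19 TPM with DMSO, and 1.13 and 1.01 TPM with MS-275 at 8 dpa, against 0.30 and 0.25 TPM with DMSO. In ST it had 0.78 and 1.04 TPM with MS-275 at 3 dpa, against 0.09 and 0.11 TPM with DMSO, and 0.50 and 0.73 TPM with MS-275 at 8 dpa, against 0.10 and 0.07 TPM with DMSO. The ratio of the mean TPM was 8.05 and 3.89 in epidermis and 9.10 and 7.24 in ST, and the groups did not overlap in any of the 4 comparisons. The increase was called in epidermis at 3 dpa (adjusted p = 0.0481) and 8 dpa (adjusted p = 0.0327) and in ST at 3 dpa (adjusted p = 0.0371). In ST at 8 dpa the log2 fold change was 1.94 (SE 0.46, adjusted p = 0.0816). Of the other settings 6 of 10 kept the call in epidermis at 3 dpa, 5 of 10 in epidermis at 8 dpa and 5 of 11 in ST at 3 dpa, and of the 4 that leave out a replicate 1 kept it in epidermis at 3 dpa and 0 in the other comparisons. The intact ST held far more of it, 13.9 and 7.32 TPM at 0 dpa. SLC16A3 is a member through ST lists that set the ST DMSO samples at 3 and 8 dpa against 0 dpa. Low values in those samples favour both the listing and the rise in ST. The p-values in ST are thus not independent of the choice of members.

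**Figure D2:**
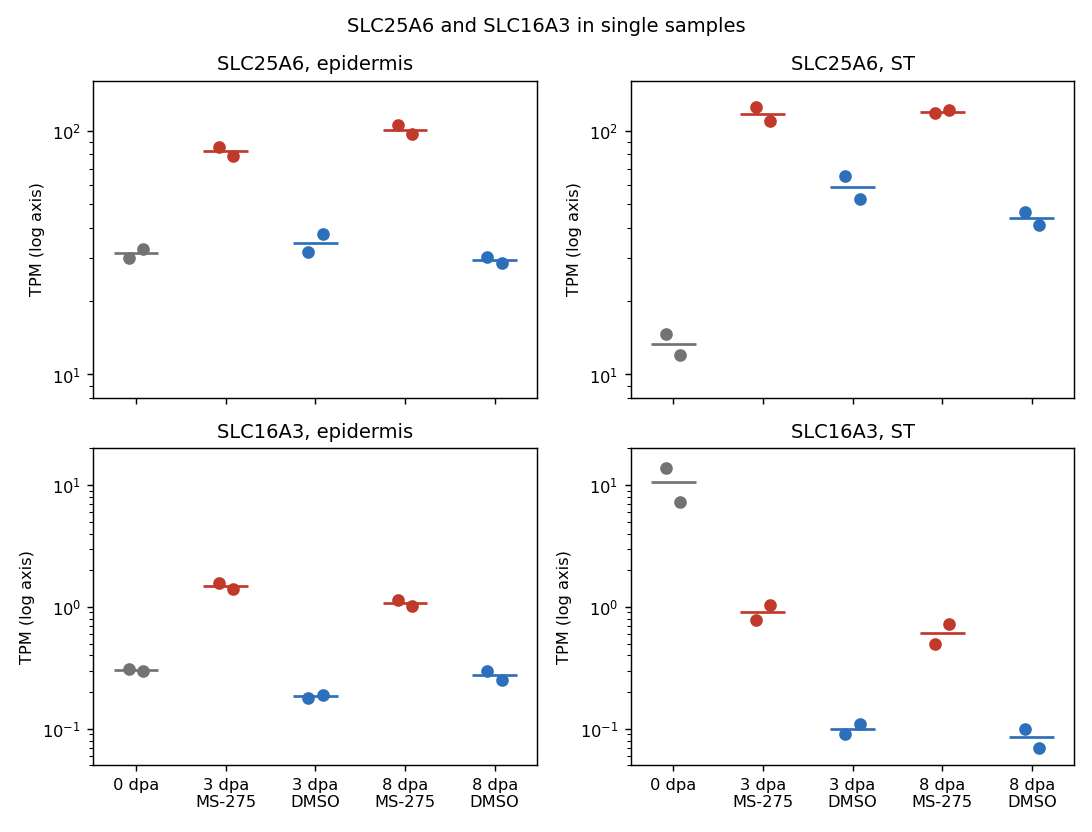
TPM (log axis) of SLC25A6 (upper row) and SLC16A3 (lower row) in epidermis (left) and ST (right), with 1 dot per sample and a line at the mean of each group (grey 0 dpa, red MS-275, blue DMSO, n = 2 per group). In each tissue and at each time both MS-275 dots lie above both DMSO dots.

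Higher in every MS-275 sample than in the DMSO samples, in all 4 comparisons, were 4 of the 81 members tested in both tissues, against 2.12% of all transcripts. Besides SLC25A6 and SLC16A3 they were SLC2A1, a glucose carrier of the plasma membrane, and SLC16A6 transcript 2. SLC2A1 had 11.2 and 7.23 TPM in epidermis with MS-275 at 3 dpa, against 0.70 and 3.16 TPM with DMSO, and its log2 fold changes of 0.50 to 2.49 did not pass in any comparison. SLC16A6 transcript 2 rose in epidermis at 8 dpa, with 4.17 and 2.34 TPM with MS-275, against 0.85 and 0.87 TPM with DMSO (adjusted p = 0.0202). Its replicates in ST ranged widely, with 0 and 2.12 TPM at 0 dpa. The members lower in every MS-275 sample of all 4 comparisons were the 2 transcripts of SLC43A2, against 2.53% of all transcripts.

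Of the 17 mitochondrial carrier transcripts, SLC25A3, the phosphate carrier of mitochondria, and SLC25A4 transcript 3 fell with MS-275 in ST at 3 dpa and SLC25A6 rose. All but SLC25A6 and SLC25A20 had a negative log2 fold change there (median -1.14, beside 0.09 over all transcripts). SLC25A3 had 25.9 and 27.5 TPM with MS-275, against 171 and 73.3 TPM with DMSO (log2 fold change -2.06, SE 0.36, adjusted p = 0.0283). SLC25A4 transcript 3 had 31.6 and 23.2 TPM with MS-275, against 160.1 and 67.6 TPM with DMSO (log2 fold change -1.94, SE 0.39, adjusted p = 0.0398). SLC25A4 transcript 3 is a member through ST lists only. SLC25A3 is a member through ST lists that include DMSO at 8 dpa against 3 dpa. High values at 3 dpa favour both that listing and the fall of SLC25A3, so its p-value is not independent of the choice of members. In both genes the DMSO replicates lay further apart than the MS-275 replicates, and without DMSO replicate 1 the log2 fold changes were -1.45 and -1.32 and neither was called. Without either MS-275 replicate neither was called, and after rescaling neither passed. Muscle markers summed to 4586 and 3789 TPM in these MS-275 samples, against 20342 and 7655 TPM in the DMSO samples, with the higher sum in the DMSO sample that had more SLC25A3, and 1 of 28 marker transcripts was called lower. The TTN transcripts went the other way, 1 of them with 30.4 and 17.4 TPM with MS-275, against 12.3 and 3.86 TPM with DMSO. In ST at 8 dpa SLC25A3 had 62.6 and 63.0 TPM with MS-275, against 27.7 and 34.5 TPM with DMSO, and did not pass, beside muscle marker sums of 7543 and 6730 TPM with MS-275, against 2411 and 2819 TPM with DMSO. Some markers went against that sum. A MYH4 transcript had 12.7 and 14.8 TPM with MS-275, against 25.6 and 22.8 TPM with DMSO. A TTN transcript had 9.01 and 10.2 TPM with MS-275, against 11.4 and 13.4 TPM with DMSO. The part of muscle in these results was not tested.

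In epidermis at 8 dpa SLC25A4 transcripts 1, 2 and 3 rose with MS-275. Transcript 1 had 3.75 and 4.42 TPM with MS-275, against 0.08 and 0.32 TPM with DMSO. Transcript 2 had 2.12 and 3.87 TPM with MS-275, against 0.09 and 0.23 TPM with DMSO (log2 fold change 3.57, SE 0.57, adjusted p = 0.0108). Transcript 3 had 1.93 and 3.75 TPM with MS-275, against 0.30 and 0 TPM with DMSO. Transcripts 4 and 5 were also higher in both MS-275 samples but did not pass. In ST at 0 dpa transcript 1 had 716 and 855 TPM. Muscle markers summed to 94.0 and 202 TPM in the MS-275 epidermis at 8 dpa, against 1.11 and 1.93 TPM in the DMSO epidermis, and 6 of 26 muscle marker transcripts tested were called higher. MYH4, RYR1 and TTN, parts of the contractile and calcium release apparatus, had transcripts listed at 0 in both DMSO samples, as did other markers such as ACTN3 and TNNC2. Some of these lay near the floor in all 4 samples, as 1 RYR1 transcript had 0.02 and 0.04 TPM with MS-275. The part of muscle in the rise of SLC25A4 was not tested.

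Among the other mitochondrial carriers, SLC25A12, an exchanger of aspartate and glutamate, had 3 transcripts and SLC25A11, the exchanger of oxoglutarate and malate, had 3. Transcript 2 of SLC25A12 fell in epidermis at 8 dpa, with 2.73 and 2.38 TPM with MS-275, against 5.50 and 5.47 TPM with DMSO, and at 3 dpa it had 9.27 and 6.99 TPM with MS-275, against 2.25 and 3.95 TPM with DMSO. Transcript 1 of SLC25A11 fell in epidermis at 8 dpa, with 6.10 and 2.55 TPM with MS-275, against 11.7 and 11.4 TPM with DMSO. Neither of these falls passed after rescaling. Transcripts 1 and 3 of SLC25A12 and transcripts 2 and 3 of SLC25A11 passed in no comparison with MS-275.

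**Figure D3:**
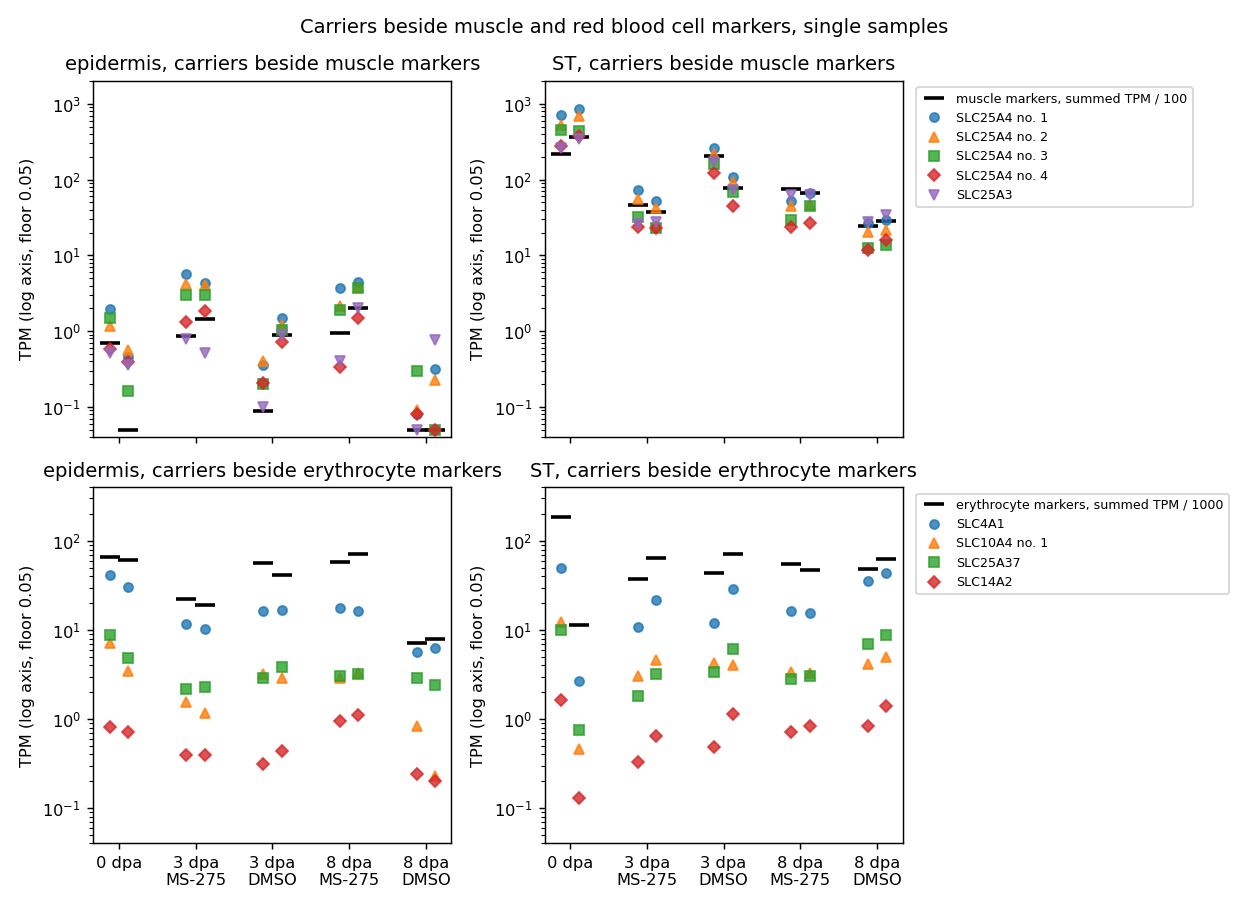
TPM (log axis; values under 0.05 drawn at 0.05) of carriers in single samples of epidermis (left) and ST (right). Upper panels: SLC25A4 transcripts 1 to 4 and SLC25A3 with the summed muscle markers (short lines, divided by 100); lower panels: SLC4A1, SLC10A4 transcript 1, SLC25A37 and SLC14A2 with the summed red blood cell markers (short lines, divided by 1000). In ST at 0 dpa the left sample is high and the right sample low for all 4 carriers of the lower panel and for the red blood cell markers.

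Several carriers rose in epidermis at 8 dpa in samples that also had more red blood cell markers. SLC4A1 had 17.4 and 16.2 TPM with MS-275, against 5.67 and 6.27 TPM with DMSO (log2 fold change 1.48, SE 0.19, adjusted p = 0.00577). SLC10A4, a relative of the bile acid carriers, had 2.88 and 3.30 TPM of transcript 1 with MS-275, against 0.83 and 0.23 TPM with DMSO, and 1.83 and 2.48 TPM of transcript 2 with MS-275, against 0.35 and 0.51 TPM with DMSO. These increases passed, as did those of SLC14A2, a urea carrier (adjusted p = 0.0278), SLC25A20, the carnitine carrier of mitochondria (adjusted p = 0.0280), and the scaffold SLC9A3R1, with 5.06 and 4.58 TPM with MS-275, against 2.0 and 1.88 TPM with DMSO (adjusted p = 0.0163). SLC4A1, SLC10A4, SLC14A2 and SLC9A3R1 are members through epidermis lists that set these DMSO samples against earlier times. Low values in those samples favour both the listing and the rise, so these p-values are not independent of the choice of members. Red blood cell markers summed to 57813 and 70481 TPM in the same MS-275 samples, against 7151 and 7943 TPM in the DMSO samples, with ALAS2 and haemoglobin genes in the list, and 28 of their 30 transcripts were called higher. At 3 dpa they ran the other way, with 22116 and 19305 TPM with MS-275, against 56997 and 41710 TPM with DMSO, and SLC4A1 had 11.5 and 10.4 TPM with MS-275, against 16.5 and 16.7 TPM with DMSO. In ST at 8 dpa SLC4A1 had 16.2 and 15.6 TPM with MS-275, against 35.4 and 44.0 TPM with DMSO. SLC10A4 transcripts 1 and 2, SLC14A2, SLC25A20 and SLC9A3R1 were also lower there in both MS-275 samples, and none of these falls passed. Red blood cell marker sums overlapped in that comparison, at 55255 and 47628 TPM with MS-275 and 48736 and 63347 TPM with DMSO.

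The replicates of ST at 0 dpa show the spread of these carriers, and of SLC25A37, the mitochondrial iron importer, within 1 group. Replicate 1, with 184805 TPM of red blood cell markers, had 50.01 TPM of SLC4A1, 12.3 and 10.4 TPM of SLC10A4 transcripts 1 and 2, 10.04 TPM of SLC25A37, 1.63 TPM of SLC14A2, 2.86 TPM of SLC25A20 and 8.36 TPM of SLC9A3R1. Replicate 2, with 11407 TPM, had 2.66 TPM of SLC4A1, 0.46 and 0.90 TPM of SLC10A4 transcripts 1 and 2, 0.76 TPM of SLC25A37, 0.13 TPM of SLC14A2, 0.23 TPM of SLC25A20 and 1.52 TPM of SLC9A3R1. All 7 transcripts were higher in replicate 1, but the share of all transcripts higher in that replicate was not counted. Replicate 1 had 87906 transcripts above 0 TPM and replicate 2 had 72566. SLC25A37 did not pass in epidermis at 8 dpa, with 3.03 and 3.19 TPM with MS-275, against 2.87 and 2.43 TPM with DMSO. The part of red blood cells in the change with MS-275 was not tested.

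Of the 7 sugar carriers, 2 were called lower with MS-275 in epidermis at 8 dpa, beside 10.2% of all transcripts. Of transcripts with a symbol in the lists 31.1% were called there in either direction. In ST 6 of the 7 were tested. None was called higher in any comparison, where 0.348% to 2.86% of all transcripts were. SLC2A4, the insulin-responsive glucose carrier of mammalian muscle and fat, had 1.09 and 0.68 TPM with MS-275, against 3.00 and 2.92 TPM with DMSO (log2 fold change -1.67, SE 0.32, adjusted p = 0.0183). SLC37A4, the glucose 6-phosphate carrier of the endoplasmic reticulum, had 1.47 and 1.38 TPM with MS-275, against 5.47 and 6.77 TPM with DMSO (log2 fold change -2.02, SE 0.38, adjusted p = 0.0162). Neither fall passed after rescaling. SLC37A2 had 31.3 and 40.3 TPM with MS-275 in ST at 8 dpa, against 60.7 and 55.0 TPM with DMSO, and did not pass. Among the monocarboxylate carriers SLC16A7, a high-affinity pyruvate and lactate carrier, fell in epidermis at 8 dpa, with 0.78 and 0.79 TPM with MS-275, against 3.95 and 3.63 TPM with DMSO (log2 fold change -2.13, SE 0.27, adjusted p = 0.00530), in the same samples in which SLC16A3 rose. After rescaling the fall of SLC16A7 was -1.46 on the log2 scale and still passed (adjusted p = 0.0150). SLC16A7 is a member through an epidermis list that set these DMSO samples against 0 dpa. High values in those samples favour both the listing and the fall, so these p-values are not independent of the choice of members.

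None of the 19 amino acid carrier transcripts was called higher with MS-275 in the 4 comparisons, where 0.348% to 2.86% of all transcripts were. In epidermis at 8 dpa 6 of 18 tested were called lower, beside 10.2% of all transcripts. Of transcripts with a symbol in the lists 31.1% were called there in either direction. In ST at 3 dpa 2 of 19 were called lower, beside 0.616% of all transcripts. In epidermis at 3 dpa 9 of 18 had a positive log2 fold change. SLC43A2, a carrier of large neutral amino acids, fell in ST at 3 dpa and in epidermis at 8 dpa with both of its transcripts. In ST transcript 1 had 13.1 and 12.1 TPM with MS-275 at 3 dpa, against 26.8 and 29.5 TPM with DMSO (log2 fold change -1.15, SE 0.23, adjusted p = 0.0367), and 16.2 and 13.1 TPM with MS-275 at 8 dpa, against 29.3 and 28.7 TPM with DMSO (log2 fold change -0.98, SE 0.23, adjusted p = 0.0769). In epidermis it had 9.37 and 6.72 TPM with MS-275 at 8 dpa, against 17.0 and 19.3 TPM with DMSO (log2 fold change -1.18, SE 0.21, adjusted p = 0.0139). In all of these the groups did not overlap. The fall of transcript 2 in ST at 3 dpa, to 3.92 and 4.11 TPM with MS-275, against 9.64 and 9.98 TPM with DMSO, passed after rescaling too (adjusted p = 0.0292), and those of both transcripts in epidermis at 8 dpa did not. Both transcripts are members through ST lists only, which set ST DMSO samples of different times against each other. Their p-values in ST may thus not be independent of the choice of members.

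Of the amino acid carriers SLC7A2 and SLC1A3 fell most in epidermis at 8 dpa. SLC7A2, a carrier of arginine and lysine, had 0.45 and 0.45 TPM with MS-275, against 2.58 and 2.28 TPM with DMSO (log2 fold change -2.20, SE 0.30, adjusted p = 0.00643). SLC1A3, a glutamate and aspartate carrier, had 2.67 and 2.66 TPM with MS-275, against 8.44 and 8.49 TPM with DMSO (log2 fold change -1.63, SE 0.24, adjusted p = 0.00817). Both falls passed after rescaling, at -1.54 and -0.93 on the log2 scale. SLC7A8 transcript 1 had 21.2 and 22.6 TPM with MS-275, against 42.3 and 49.4 TPM with DMSO, and SLC36A1, a proton-coupled carrier of small amino acids in lysosomes, had 4.73 and 4.49 TPM with MS-275, against 9.25 and 8.27 TPM with DMSO. These 2 falls passed as deposited and not after rescaling. SLC7A8 transcript 1 was also listed from epidermis at 8 dpa against 0 dpa, with these DMSO samples high, so its call is not independent of that listing. Leukocyte markers (10 symbols) summed to 495 and 446 TPM in the MS-275 samples and 730.0 and 724 TPM in the DMSO samples. Of their 18 transcripts 5 were called lower, beside 10.2% of all transcripts, and 1 after rescaling. Not all fell, as TYROBP had 52.9 and 34.3 TPM with MS-275, against 32.9 and 34.0 TPM with DMSO. The part of leukocytes was not tested.

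Of the 8 metal carriers SLC30A10, which exports manganese, fell in ST at 3 dpa, with 1.97 and 2.33 TPM with MS-275, against 6.41 and 5.63 TPM with DMSO (log2 fold change -1.45, SE 0.27, adjusted p = 0.0316). It also fell in epidermis at 8 dpa, with 1.21 and 1.01 TPM with MS-275, against 3.52 and 2.65 TPM with DMSO (adjusted p = 0.0200), and only the fall in ST passed after rescaling. SLC30A10 is a member through ST lists only, so its p-value in ST may not be independent of the choice of members. SLC41A1, a magnesium carrier, fell in epidermis at 8 dpa, with 0.26 and 0.15 TPM with MS-275, against 1.34 and 1.08 TPM with DMSO (adjusted p = 0.0306), a fall that did not pass after rescaling. SLC39A7 had 25.1 and 23.0 TPM with MS-275 in epidermis at 8 dpa, against 37.3 and 37.0 TPM with DMSO, and passed in no comparison.

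Among the inorganic ion carriers SLC26A11, a sulfate and chloride carrier, fell at 8 dpa in both tissues. In ST it had 3.46 and 3.39 TPM with MS-275, against 8.41 and 7.94 TPM with DMSO (log2 fold change -1.23, SE 0.21, adjusted p = 0.0413), and in epidermis 3.08 and 2.04 TPM with MS-275, against 4.96 and 5.51 TPM with DMSO (log2 fold change -1.03, SE 0.26, adjusted p = 0.0393). Neither fall passed after rescaling. SLC26A11 is a member through ST lists only, so its p-value in ST may not be independent of the choice of members. SLC12A4, a potassium and chloride co-transporter, fell in epidermis at 8 dpa, with 3.14 and 2.89 TPM with MS-275, against 9.80 and 7.61 TPM with DMSO (adjusted p = 0.0192), and did not pass after rescaling. SLC4A2, the chloride/bicarbonate exchanger used by osteoclasts in mammals, had 1.49 and 3.37 TPM with MS-275 in ST at 8 dpa, against 8.90 and 8.93 TPM with DMSO, and did not pass.

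SLC43A3 rose in ST at 3 dpa and fell in epidermis at 8 dpa. In ST at 3 dpa it had 1.26 and 3.18 TPM with MS-275, against 0.25 and 0.16 TPM with DMSO (log2 fold change 2.81, SE 0.58, adjusted p = 0.0424). Epidermal markers summed to 467 to 1020 TPM in those MS-275 ST samples and 54.7 to 125.5 TPM in the DMSO samples. Of 9 marker transcripts tested 9 were called higher, beside 2.86% of all transcripts, and 5 after rescaling. TP63 and 1 transcript each of KRT5 and KRT15 were listed at 0 in both DMSO samples, while the other KRT15 transcript had 273 and 575 TPM with MS-275, against 11.8 and 81.5 TPM with DMSO. The part of epidermal cells was not tested, and after rescaling the rise did not pass. In epidermis at 8 dpa SLC43A3 fell, with 3.48 and 3.68 TPM with MS-275, against 18.4 and 22.1 TPM with DMSO (log2 fold change -2.46, SE 0.27, adjusted p = 0.00346). This fall passed under all 11 other settings. SLC44A1, a choline carrier, fell in the same epidermis samples, with 2.57 and 2.43 TPM with MS-275, against 10.1 and 8.29 TPM with DMSO (log2 fold change -1.83, SE 0.21, adjusted p = 0.00421), and passed after rescaling.

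Nucleoside carriers SLC29A3, of lysosomes, and SLC29A4, which also moves monoamines, fell in epidermis at 8 dpa (adjusted p = 0.0214 and 0.0299), SLC29A4 with 0.10 and 0.09 TPM with MS-275, against 0.53 and 0.59 TPM with DMSO. Neither fall passed after rescaling. SLC35A4, a member of the nucleotide sugar carrier family, had 5.83 and 7.66 TPM with MS-275 in epidermis at 8 dpa and was listed at 0 and 0.28 TPM with DMSO (adjusted p = 0.00421). Its log2 fold change of 5.12 (SE 0.59) depends on the pseudocount and was 2.77 with a pseudocount of 1, and the call was kept under all 11 other settings. Its levels varied between replicates in ST at 3 dpa, with 1.17 and 7.38 TPM with MS-275, against 0 and 4.16 TPM with DMSO. In ST at 8 dpa both MS-275 samples were higher than both DMSO samples, and this rise did not pass.

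Whether the change with MS-275 differed between tissues was tested by an interaction contrast over all 20 samples. At 3 dpa it passed for 3 of 83 members, beside 0.32% of all transcripts and 2.13% of those with a symbol in the lists. SLC25A12 transcript 2 was higher with MS-275 in epidermis (log2 fold change 1.40) and lower in ST, with 5.19 and 4.46 TPM with MS-275, against 10.02 and 12.6 TPM with DMSO (log2 fold change -1.21), a difference of 2.61 (SE 0.42, adjusted p = 0.0263). For SLC25A4 transcript 2 the difference was 3.92 (SE 0.70, adjusted p = 0.0361). SLC6A8 transcript 1, a creatine carrier, had 2.22 and 1.95 TPM with MS-275 in epidermis at 3 dpa, against 0.53 and 0.60 TPM with DMSO, and 3.27 and 3.40 TPM with MS-275 in ST, against 2.98 and 4.47 TPM with DMSO, a difference of 1.84 (SE 0.34, adjusted p = 0.0396). SLC25A4 transcript 2 had 4.17 and 4.01 TPM with MS-275 in epidermis, against 0.40 and 1.20 TPM with DMSO, and 55.8 and 42.0 TPM with MS-275 in ST, against 218 and 91.7 TPM with DMSO. SLC6A8 transcript 1 was listed from epidermis DMSO samples at 8 dpa against 3 dpa. Low values at 3 dpa favour both that listing and its difference between tissues. SLC25A4 transcript 2 was listed from ST comparisons that used the DMSO samples at 3 dpa. The p-values of both are not independent of the choice of members. With the replicate number within each condition as a block, which pairs the tissues if same-numbered samples share animals, 0 of the 3 were called. None was kept without either epidermis MS-275 replicate or without ST MS-275 replicate 2. Without epidermis DMSO replicate 1 SLC25A12 transcript 2 was kept alone, without ST DMSO replicate 1 SLC6A8 transcript 1 alone, and without ST MS-275 replicate 1, epidermis DMSO replicate 2 or ST DMSO replicate 2 the 2 mitochondrial carriers. At 8 dpa limma called 0 members, beside 0.043% of all transcripts and 0.377% of those with a symbol in the lists, with 21 at an unadjusted p under 0.05 and 4 called with a pseudocount of 1.

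Epidermis and ST were also compared within each control group, as independent samples. At 0 dpa 52 of 83 members were called, 35 higher and 17 lower in epidermis, where 19.1% of all transcripts (14.8% higher, 4.23% lower) and 50.6% of those with a symbol in the lists were called. After rescaling 22 were higher and 20 lower. Before rescaling, 15 were higher and 16 lower of the 42 members listed from ST only. Of the 31 listed from epidermis only, 11 were higher and 1 lower, so the balance of directions differed between these sets. List origin and role of the members were not separated. Of the 17 mitochondrial carrier transcripts 12 were lower in epidermis and SLC25A6 alone was higher, a call it lost after rescaling. SLC25A4 transcript 1 had 1.99 and 0.45 TPM in epidermis and 716 and 855 TPM in ST (log2 fold change -9.51, SE 0.64, adjusted p = 1.39e-06). SLC25A3 had 0.52 and 0.36 TPM in epidermis and 262 and 348 TPM in ST (log2 fold change -9.14, SE 0.92, adjusted p = 1.50e-05). SLC25A4 transcripts 2, 3 and 4 had log2 fold changes of -9.36, -9.46 and -9.13. Muscle markers differed in the same direction, with 2.44 and 70.6 TPM in epidermis and 21718 and 36940 TPM in ST, and their part was not tested. SLC25A3 and SLC25A4 transcripts 1 and 2 were listed from ST at 8 dpa against 0 dpa, with the higher mean at 0 dpa. High ST values at 0 dpa favour both that listing and the difference between tissues. Their p-values here are thus not independent of the choice of members.

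The carriers most raised in epidermis at 0 dpa moved purines, urate, glutamate and amino acids. SLC43A3 had 16.2 and 24.1 TPM in epidermis and 0.54 and 1.23 TPM in ST (log2 fold change 4.43, SE 0.45, adjusted p = 1.66e-05). SLC2A9, a urate carrier of the glucose carrier family, had 2.10 and 3.22 TPM in epidermis and 0.02 and 0.17 TPM in ST (log2 fold change 3.91, SE 0.47). SLC1A3 had 11.8 and 14.1 TPM in epidermis and 0.63 and 0.95 TPM in ST (log2 fold change 3.89, SE 0.26). SLC7A7 transcript 2, part of a cationic amino acid exchanger, had 8.12 and 13.1 TPM in epidermis and 0.41 and 1.08 TPM in ST (log2 fold change 3.74, SE 0.68). SLC38A6, a relative of glutamine carriers, had 0.40 and 0.81 TPM in epidermis and was listed at 0 in both ST samples. At 3 dpa with DMSO 10 members were higher and 33 lower in epidermis, where 12.1% of all transcripts (5.23% higher, 6.86% lower) and 42.8% of those in the lists were called, and at 8 dpa with DMSO 11 were higher and 19 lower, where 14.4% (6.87% higher, 7.5% lower) and 43.3% were called. SLC43A3, SLC2A9, SLC1A3 and SLC7A7 transcript 2 were called higher in epidermis at all 3 times. Of these SLC2A9, SLC1A3 and SLC7A7 transcript 2 are members through epidermis lists only. Each was listed from epidermis at 8 dpa against 0 dpa, with the higher mean at 0 dpa. High values at 0 dpa favour both that listing and the difference between tissues. Their p-values at 0 dpa are thus not independent of the choice of members.

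**Figure D4:**
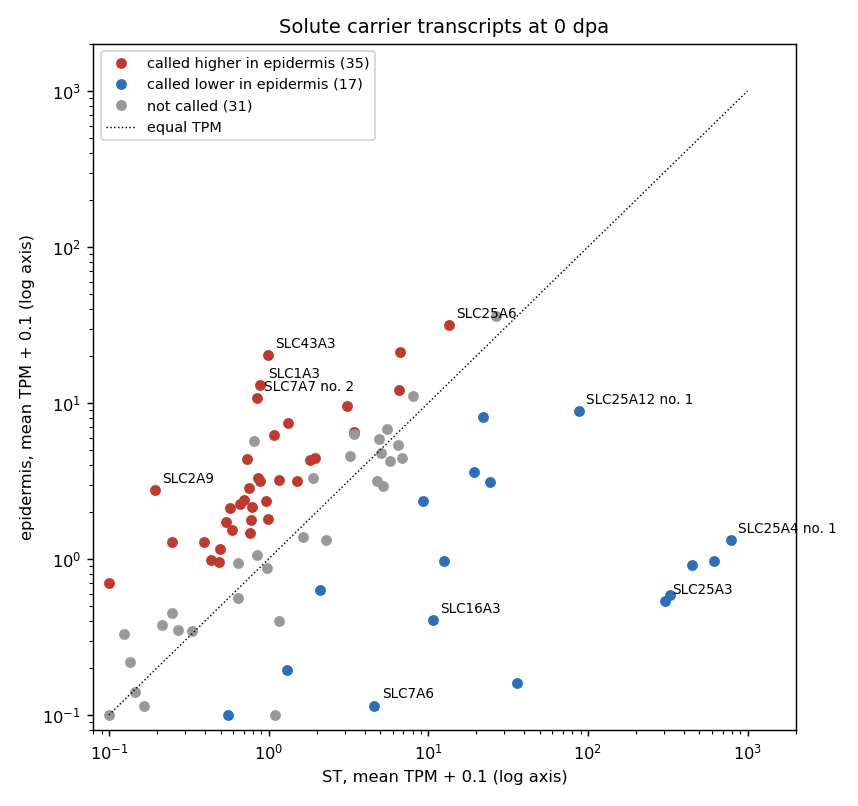
Mean TPM + 0.1 (log axes, n = 2 per tissue) of the 83 solute carrier transcripts in epidermis (vertical) against ST (horizontal) at 0 dpa; red and blue dots were called higher and lower in epidermis, and grey dots were not called. The 5 dots furthest right are SLC25A4 transcripts 1 to 4 and SLC25A3, all far below the dotted line of equal TPM.

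Changes with time in DMSO limbs chose the members, so over all members they are a description. In ST 60 of 82 members passed at 8 dpa against 0 dpa, 41 higher and 19 lower, where 30% of all transcripts passed, 27.5% higher and 2.44% lower. The members' median log2 fold change there was 1.72 beside 0.96 over all transcripts, and 0.41 beside 0.05 after rescaling. The largest falls were SLC16A3, at 0.10 and 0.07 TPM at 8 dpa and 13.9 and 7.32 TPM at 0 dpa, and SLC25A4 transcripts 1 to 4, with log2 fold changes of -4.81, -4.85, -5.09 and -4.55. The largest rises were SLC4A2 (log2 fold change 6.0), SLC9B2 transcript 2, a sodium/proton exchanger (4.91), SLC2A6, a lysosomal sugar carrier (4.68), SLC38A6, which was listed at 0 at 0 dpa, and SLC39A1, a zinc importer (4.36). SLC4A2 was at 0.01 and 0.08 TPM at 0 dpa, 0.18 and 0.52 TPM at 3 dpa and 8.90 and 8.93 TPM at 8 dpa. SLC37A2 had 2.60 and 3.70 TPM at 0 dpa, 18.0 and 27.1 TPM at 3 dpa and 60.7 and 55.0 TPM at 8 dpa.

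In epidermis 31 of 82 members passed at 8 dpa against 0 dpa, 22 higher and 9 lower, where 5.68% of all transcripts passed, 4.8% higher and 0.88% lower, and 14 higher and 13 lower after rescaling. At 3 dpa 2 were higher and 4 lower than at 0 dpa, where 0.61% and 0.573% of all transcripts were, and 8 and 2 after rescaling. The largest rises at 8 dpa were SLC35F6 transcript 3, listed at 0 in both samples at 0 dpa and at 2.63 and 2.25 TPM at 8 dpa, SLC2A6 (log2 fold change 3.79), SLC25A13, another aspartate and glutamate exchanger (3.05), SLC15A3 transcript 1, a lysosomal peptide and histidine carrier (2.83), and SLC12A9 transcript 1, of the cation and chloride co-transporter family (2.44). The largest falls were SLC10A4 transcripts 1 (-3.20) and 2 (-3.02), SLC4A1 (-2.55), SLC7A11, the cystine/glutamate exchanger (-2.15), and SLC25A4 transcript 4 (-2.11), the last of which did not pass. Of SLC35F6, of the nucleotide sugar carrier family, transcript 1 had 1.98 and 2.11 TPM at 0 dpa and 6.74 and 6.12 TPM at 8 dpa with DMSO, and transcript 2 had 1.80 and 1.45 TPM at 0 dpa and 5.86 and 6.68 TPM at 8 dpa with DMSO.

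Members listed from the other tissue only were not chosen by a call in the tissue tested here. They were set apart by being absent from its shortened lists, so these counts are not independent of that tissue's time changes. The 10 members listed from both tissues, all called in ST at 3 and 8 dpa against 0 dpa, were left out. In ST, of the 31 members listed from epidermis only and 30 tested, 8 were higher at 3 dpa than at 0 dpa and none lower, where 15.3% of all transcripts were called, 13.1% higher and 2.22% lower. After rescaling 6 were higher and 1 lower. They included SLC7A8 transcript 2 (log2 fold change 3.51, SE 0.33), SLC12A9 transcript 2 (2.84, SE 0.29), SLC29A3 (2.61, SE 0.26) and SLC31A1, the copper importer (1.73, SE 0.21). At 8 dpa 10 were higher and SLC7A11 was lower, with 1.09 and 1.21 TPM, against 3.09 and 6.28 TPM at 0 dpa (adjusted p = 0.0115), where 30% of all transcripts were called. Rescaling gave 6 calls, 4 higher and 2 lower, of which 5 were among the 11. SLC7A11 was not called without either DMSO replicate at 8 dpa. Without ST replicate 1 of 0 dpa, the sample rich in red blood cell markers, 18 were called. In epidermis, of the 42 members listed from ST only and 41 tested, limma called 0 at 3 dpa against 0 dpa, with 4 at an unadjusted p under 0.05, where 1.18% of all transcripts were called. At 8 dpa 6 were higher, SLC43A2 transcripts 1 and 2, SLC25A12 transcript 3, SLC30A10, SLC26A11 and SLC11A1, the iron and manganese carrier of macrophage phagosomes. For these 6, 5.68% of all transcripts is the background. Rescaling gave 0 calls, and leaving out a replicate gave 1 without replicate 1 of 0 dpa, 2 without replicate 2 of 0 dpa and 0 without either DMSO replicate of 8 dpa.

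Of those 6, SLC43A2 with both transcripts, SLC30A10 and SLC26A11 were also called lower with MS-275 in epidermis at 8 dpa. The comparisons share the DMSO samples at 8 dpa, so the values stand side by side only. SLC11A1 had 2.45 and 3.96 TPM at 0 dpa in epidermis. It had 14.8 and 11.4 TPM with MS-275 at 3 dpa, against 4.38 and 8.96 TPM with DMSO, and 10.7 and 18.9 TPM with MS-275 at 8 dpa, against 11.1 and 13.7 TPM with DMSO. In ST it stood at 0.49 and 1.03 TPM at 0 dpa and at 34.7 and 20.2 TPM with DMSO at 3 dpa. Leukocyte markers summed to 89.9 and 86.4 TPM in ST at 0 dpa and 622 and 741 TPM with DMSO at 3 dpa, and in epidermis to 207 and 228 TPM at 0 dpa and 730.0 and 724 TPM with DMSO at 8 dpa. Their part in these changes was not tested.

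**Figure D5:**
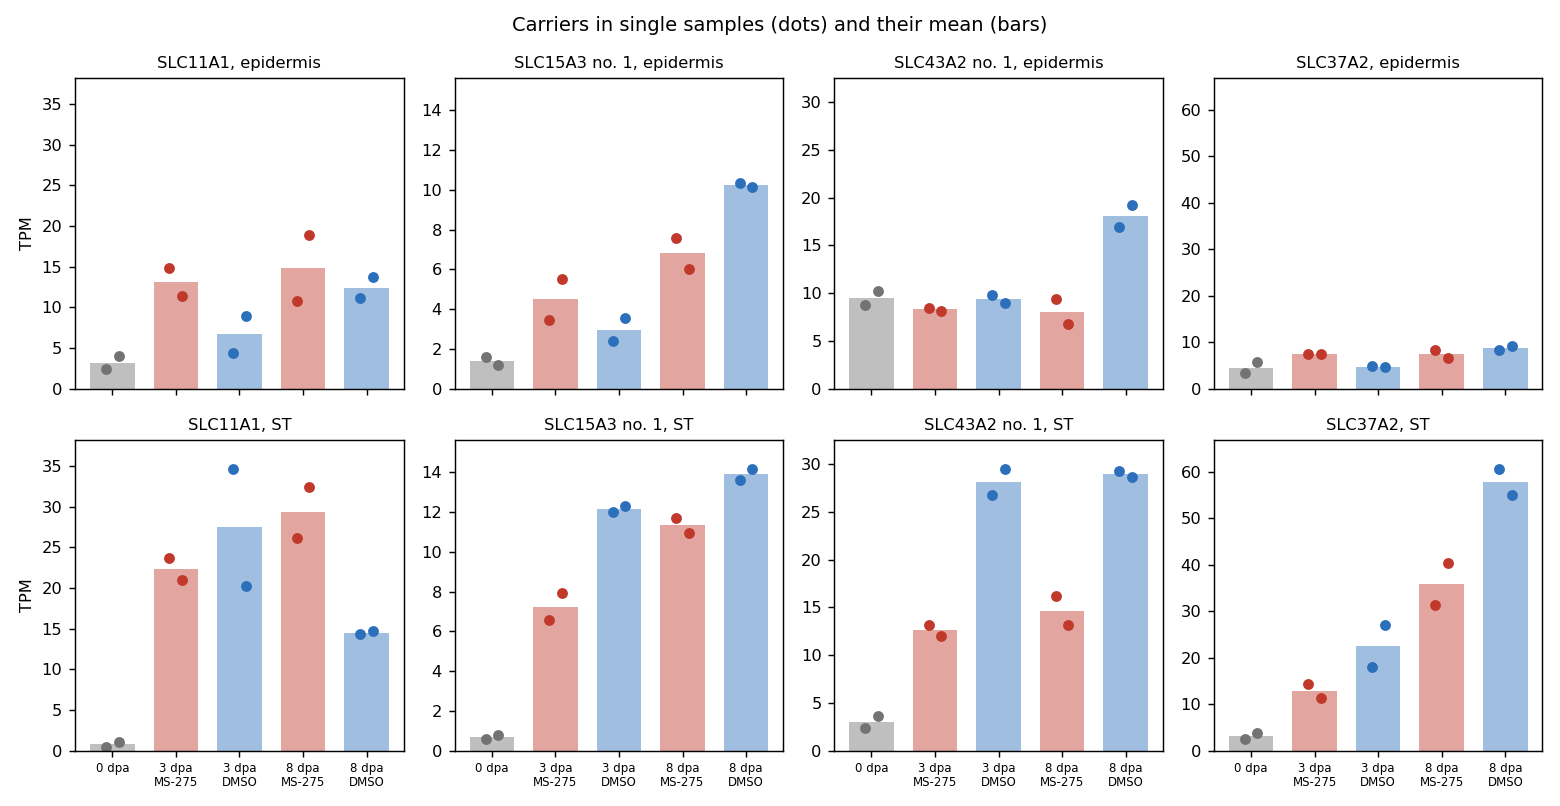
TPM of SLC11A1, SLC15A3 transcript 1, SLC43A2 transcript 1 and SLC37A2 in epidermis (upper row) and ST (lower row), with dots for samples and bars for the mean of 2 (grey 0 dpa, red MS-275, blue DMSO). Within ST all 4 are lowest at 0 dpa; SLC43A2 transcript 1 is lower with MS-275 than with DMSO in both samples of each pair of groups.

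Other membrane transport genes were counted beside the carriers, as 39 transcripts of 27 pump and channel symbols and 22 transcripts of 14 ABC transporter symbols. In epidermis at 8 dpa 3 of 36 pump and channel transcripts tested were higher and 9 lower with MS-275, and 0 of 21 ABC transcripts were higher and 10 lower. After rescaling 3 were higher and 2 lower, and 0 higher and 6 lower. Of all transcripts 2% were called higher and 10.2% lower in that comparison before rescaling. Of those with a symbol in the lists 31.1% were called in either direction. The pump, channel and ABC symbols are likewise known only through these lists of changes in DMSO limbs. Their calls are thus not independent of the choice of transcripts. The 5 transcripts of 1 gene, ABCB9, a lysosomal peptide carrier, were 5 of the 10 ABC transcripts called lower, and summed to 17.2 and 13.8 TPM with MS-275, against 82.3 and 91.4 TPM with DMSO. The other ABC transcripts, of which 5 of 16 were lower, summed to 26.8 and 22.8 TPM with MS-275, against 48.9 and 52.4 TPM with DMSO. In ST at 3 dpa 3 of 39 pump and channel transcripts tested were higher and 2 lower. Of 21 ABC transcripts 2 were higher and 1 lower there. Of all transcripts 3.48% were called in that comparison, and 11.2% of those in the lists. In ST at 8 dpa 3 of 21 ABC transcripts were lower, beside 1.26% of all transcripts and 7.62% of those in the lists called. In epidermis at 3 dpa 2 of 21 ABC transcripts were higher and 1 of 36 pump or channel transcripts lower. There 0.418% of all transcripts and 2.13% of those in the lists were called.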

How the data were processed

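Per the labels and the study's methods, the authors used cutadapt for trimming, Bowtie2 for alignment to an axolotl transcriptome and RSEM for quantification, and deposited TPM (transcript levels per length and sample total), with no counts. All 20 columns were used. Transcripts above 0 TPM in at least 5 samples were tested with limma 3.58.1 in R 4.3.3 on log2(TPM + 0.1) with a trended prior, two-sided, in 10 samples per tissue, or in all 20 for contrasts between tissues. An exact permutation test of 2 against 2 samples cannot give a p below 0.3333. The fit was tested on simulated data.

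The members, roles and lists were chosen with earlier results of these data known. Named were members called with MS-275 (the 15 lowest p where more), the most abundant of each role, the 5 largest rises and falls with time and between tissues, symbols with at least 3 transcripts, and members whose change differed between tissues. SLC2A1, SLC12A4, SLC14A2, SLC16A6 transcript 2, SLC25A20, SLC25A37, SLC29A3, SLC29A4, SLC36A1, SLC41A1, SLC11A1, SLC7A8 and SLC12A9 transcripts 2, SLC31A1 and ABCB9 were named after their values were seen. RefSeq annotation (UKY_AmexF1_1) held 58 of the 64 symbols. Within a tissue, same-numbered samples of different conditions were different animals. Both tissues came from the same animals, but the labels do not match their samples, so no block was used. p-values measure the spread between pools of 2 animals. Library kits differ between labels and methods, so strand use is uncertain.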

Additional observations from a re-analysis of the deposited data

Results flagged for a closer look

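The change with MS-275 at 3 dpa differed between epidermis and ST for 3 solute carrier transcripts, each tested by an interaction contrast in limma over all 20 samples taken as independent, although by the study's count of animals both tissues came from the same animals. With the replicate number within each condition as a block, 0 of the 3 were called. The difference, epidermis minus ST, was 2.61 on the log2 scale for SLC25A12 transcript 2, 3.92 for SLC25A4 transcript 2 and 1.84 for SLC6A8 transcript 1. SLC25A4 transcript 2 and SLC6A8 transcript 1 are members through lists that used DMSO samples of this contrast. Their calls are not independent of that choice. Muscle marker sums with MS-275 were higher on average but overlapping in epidermis, at 85.6 and 144 TPM, against 8.74 and 89.3 TPM with DMSO. In ST they were lower, at 4586 and 3789 TPM, against 20342 and 7655 TPM with DMSO, though the TTN transcripts were higher. The part of muscle was not tested.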

How the results depend on the processing

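Counts of members called with MS-275 moved most. In ST at 3 dpa the 8 calls became 5 with no filter, 3 after rescaling, 2 with no trend and 16 with all 20 samples in 1 model, and 0 to 11 without a replicate. In ST at 8 dpa the 2 became 10 with a pseudocount of 1, 9 at a mean TPM of at least 1, 1 after rescaling, 0 with no trend and 10 in 1 model, and 0 without any replicate. In epidermis at 3 dpa the 2 became 5 at a mean TPM of at least 1, 1 with no trend and 7 in 1 model, and 0 to 5 without a replicate. In epidermis at 8 dpa the 32 became 18 after rescaling and 4 to 14 without a replicate, and lay between 26 and 36 otherwise. The 3 members whose change differed between tissues at 3 dpa became 6 with a pseudocount of 1, 10 at a mean TPM of at least 1, 0 with no trend, and 0 to 6 without a replicate; at 8 dpa the 0 became 4 with a pseudocount of 1 and was 0 without any replicate. Members listed from the other tissue went from 11 to 6 in ST at 8 dpa after rescaling (10 to 18 without a replicate), and in epidermis at 8 dpa from 6 to 11 at a mean TPM of at least 1, 0 after rescaling and 2 with no trend (0 to 2 without a replicate); in epidermis at 3 dpa the count was 0 to 1 without a replicate. All members in epidermis went from 6 at 3 dpa to 10 at a mean TPM of at least 1, 10 after rescaling (8 higher, 2 lower) and 1 with no trend (0 to 7 without a replicate), and from 31 at 8 dpa to 11 to 22 without a replicate. Calls among the other transport genes at 8 dpa after rescaling were 0 in place of 3 in ST and 11 in place of 22 in epidermis. Total counts between tissues stayed within 1.5 times under every alternative run, while those higher in epidermis at 0 dpa were 35, and 22 after rescaling. For single named members, 390 alternatives kept the call, 228 lost it and 0 reversed the sign. The cause of these changes was not tested.

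Within a tissue, same-numbered replicates of different conditions came from different animals; between tissues the animals were shared, but the labels do not say by which samples. The correlation of same-numbered deviations was -0.07 to 0.157 (median 0.0041), so the numbers were not taken as pairs. With the replicate number as a block, calls with MS-275 were 3 in ST at 3 dpa, 1 in ST at 8 dpa, 0 in epidermis at 3 dpa and 28 in epidermis at 8 dpa, those differing between tissues at 3 dpa were 0, members called between tissues were 53, 43 and 32 at 0, 3 and 8 dpa, and all members in epidermis at 3 dpa were 3. The number of reads is unknown, and low TPM such as those of SLC16A3 and SLC35A4 depend on the pseudocount.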
